A study of Mus musculus with 15 samples.

Results

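The genes of tight and gap junctions were measured in liver tumors of mice with and without p53 in the liver. They were taken from the array by name, as every non-control probe whose gene symbol was a claudin (Cldn), a zonula occludens protein (Tjp) or a connexin (Gja, Gjb, Gjc or Gjd), together with Ocln, Cgn, F11r, Jam2, Jam3, Marveld2, Marveld3, Pard3 and Pard6b. This gave 66 of 55681 probes and 54 of 24336 gene symbols. The rule uses gene names only. Of the 54 genes, 23 were claudins, 19 were connexins and 12 were the other proteins of the junction.

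Tight junctions seal the space between neighbouring epithelial cells, and in the liver they close the bile canaliculus against the blood. Claudins form the strands of the seal, with some tightening it and others making selective pores, while occludin and its MARVEL relatives, the junctional adhesion molecules, the cytoplasmic scaffolds and the Par polarity proteins organise it. Gap junctions are channels built of connexins through which neighbouring cells exchange ions and small molecules, and hepatocytes are among the cells that are most strongly coupled in this way.

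Total RNA of whole tumors was hybridised to 1-colour Agilent arrays, with 1 array per tumor and 5 arrays in each of 3 groups. Hepatocellular carcinoma (HCC) was taken from p53f/f and from p53LKO mice, and the remaining group holds tumors of p53LKO mice that the labels call ICC, the usual abbreviation of intrahepatic cholangiocarcinoma. All mice, controls included, were kept on the C57/BL6J background and had received intraperitoneal CCl4, a liver toxin, at 0.5 µl per g body weight over 16 weeks. The labels and the methods differ on the interval between injections, given as every 3 days in the labels. The study describes the HCC transcriptomes as those of male mice, and the sex of each animal was not given in the sources used here. In p53LKO mice Trp53 is deleted in the liver only, whereas p53f/f mice carry the intact floxed gene, and the Cre line was not given in the sources used here. Mouse 3717 contributed 2 of the 5 p53f/f HCC, so that this group holds 4 mice, and 4 p53LKO mice gave both an HCC and an ICC. In each of the other groups every tumor came from a mouse of its own. Injections began in young mice. The study reports that tumors formed later in p53f/f than in p53LKO mice. The age at which each tumor was taken was not given in the sources used here. Genotype and age at collection therefore cannot be told apart between the HCC groups.

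A level is the log2 of the processed signal of a probe minus the 75th percentile of its array, so that 0 is the signal at that percentile and a difference of 1 is a 2-fold change. Each gene was read by its probe with the highest mean level. A gene was called changed at a Benjamini-Hochberg adjusted p under 0.05 from limma, taken over all tested probes, together with a fold change over 2. Levels of different genes come from different probes and cannot be ranked against each other. Probes well above background made up 55.1% to 70.1% of each p53f/f HCC array, 37.0% to 62.1% of each p53LKO HCC array and 42.5% to 47.0% of each ICC array. The arrays lay on 2 slides. Row 1 of the slides held all 5 p53f/f HCC and 3 p53LKO HCC, and row 2 held all 5 ICC and 2 p53LKO HCC.

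The labels were checked against marker genes. Krt19, a keratin of bile duct cells, had a level of 2.06 ± 0.49 (SD, n = 5) in ICC and of -2.60 ± 1.51 (SD, n = 5) in p53LKO HCC, and Epcam, a surface protein of bile duct cells, was well above background on 5 of 5 ICC and 0 of 5 p53LKO HCC arrays. Of 12 hepatocyte markers 7 were lower in ICC than in p53LKO HCC and 0 were higher, and all 12 remained well above background on arrays of every group. Of the 7 lymphocyte markers 4 were higher in ICC, with summed levels of 2.52 to 3.42 there and 2.55 to 2.97 in p53LKO HCC, and the p53f/f HCC of mouse 3716 stood apart at 9.26. Macrophage markers were called in neither comparison, at 5.28 to 6.38, 5.83 to 6.79 and 5.74 to 6.60 in the 3 groups. Of 4 tested pancreatic acinar markers 2 were lower in ICC. In p53LKO HCC, 2 of 9 fibroblast and stellate cell markers (Pdgfra and Lum) were higher than in p53f/f HCC, with a median log2 fold change of 0.92 over the list and summed levels of 6.24 to 7.99 against 5.0 to 6.89. In the same comparison 2 of 12 hepatocyte markers, 1 of 9 endothelial markers (Tek) and 1 of 6 tested acinar markers (Pnlip) were lower, and 0 of 6 tested bile duct and 0 of 7 lymphocyte markers were called. The part of these markers in the differences between the HCC groups was not tested. In whole tissue, fewer cells of a type and less RNA per cell cannot be told apart.

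More of these genes were called between ICC and HCC of p53LKO mice than between the HCC of both genotypes. Against p53LKO HCC, 9 of 43 tested genes were higher in ICC, among them Cldn2, Cldn13, Gja1, Gja4, Gjc3, Jam2, Jam3 and Marveld3. Another 9 were lower, namely Cldn1, Cldn3, Cldn6, Cldn7, Cldn12, Cldn14, Gjb1, Ocln and Pard3. Over all 16961 tested genes, 13.2% were higher and 15.2% lower, and the median log2 fold changes of the members and of all genes were -0.21 and -0.17. The groups did not overlap for 16 of the 43 genes, each read by 1 probe, and for 28.6% of the probes tested. The share over probes includes several probes of a gene and probes without a gene symbol. It is therefore not a like measure, here and below. Between p53LKO HCC and p53f/f HCC, 0 of 40 tested genes were higher and 5 were lower, namely Cldn15, Cldn17, Gja3, Gja10 and Gjc3. Here 5.19% of all 17848 tested genes were higher and 10.8% lower, the medians were -0.06 and 0.06, and 7 of the 40 genes had groups without overlap, against 22.5% of all tested probes. At an unadjusted p under 0.05 from limma, 5 members were higher in p53LKO HCC and 9 were lower, while 20.7% of all tested genes were higher and 20.4% lower at this limit. By the Mann-Whitney test with adjustment 0 members were higher. With other scalings or background corrections of the arrays the number of members called lower ran from 1 (normexp background correction, where 4.43% of all tested genes were lower, and spike-in scaling, where 3.97% were) to 9 (75th percentile over bright probes, those well above background on every array, where 15.5% were). With scaling to the spike-in probes 15 members were called higher, as were 39.9% of all tested genes. The p53LKO HCC arrays enter both comparisons. A direct test of ICC against p53f/f HCC was not made.

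**Figure D1:**
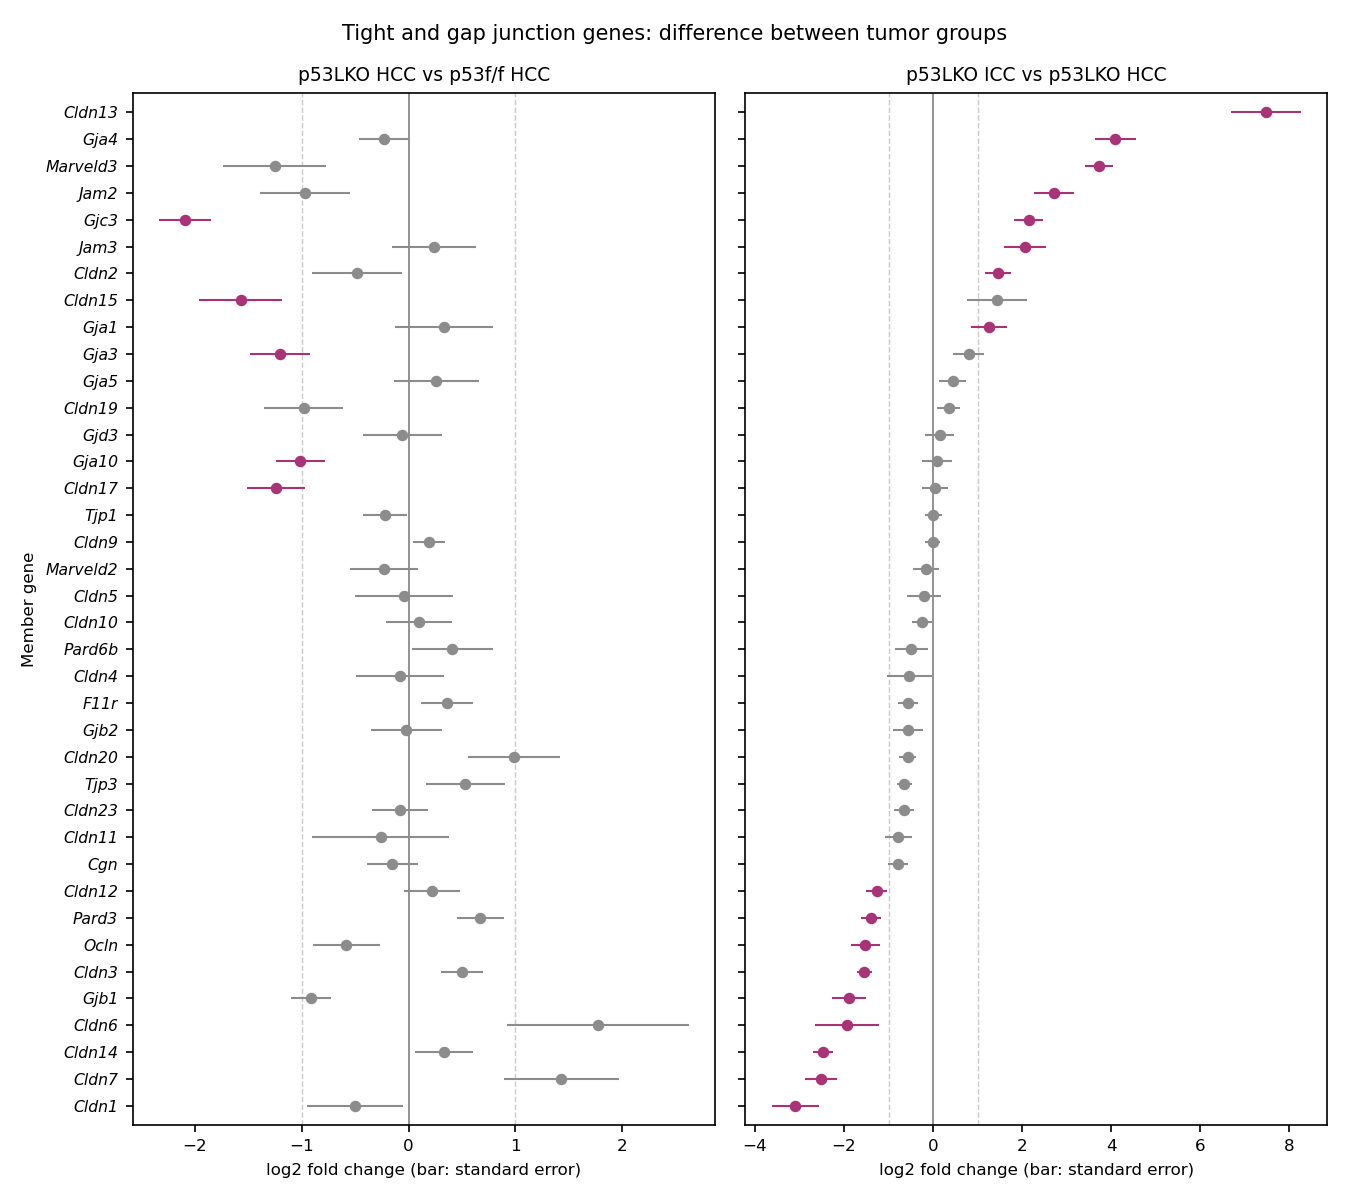
Log2 fold changes of 38 tested genes, p53LKO HCC against p53f/f HCC on the left and p53LKO ICC against p53LKO HCC on the right, with the standard error as a bar. Purple points passed both the adjusted p and the fold limit (dashed lines, 2-fold), grey points did not, and a gene without a point on the left was not tested there. The right side shows 8 genes called higher and 9 called lower, and the left side shows 5 called lower. Some genes on the right, among them Cldn13 (drawn at 7.48) and Cldn6, had 1 group not well above background on any array. Their points give no exact fold.

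Gjb1, the main connexin of hepatocytes, stepped down across the 3 groups. Its level was 7.72, 7.02, 7.28, 7.75 and 7.32 in the p53f/f HCC, 6.15, 6.65, 6.62, 6.55 and 6.55 in the p53LKO HCC, and 5.33, 3.14, 4.67, 5.47 and 4.53 in the ICC. No tumor of any group overlapped with the next. The fall from p53LKO HCC to ICC was 3.67-fold (log2 fold change -1.88, standard error 0.38, limma adjusted p = 0.003). The step from p53f/f to p53LKO HCC was smaller (log2 fold change -0.91, standard error 0.19, adjusted p = 0.00422). It amounted to 1.88-fold and so did not pass the fold limit, but it did so without the p53f/f HCC of mouse 3715, at a log2 fold change of -1.01, and with scaling to the 75th percentile over bright probes, at -1.17. With all 15 arrays in 1 model its adjusted p was 0.0523. In each case the exact 2-sided permutation test over 252 splits of the arrays gave p = 0.00794, which is the lowest value this number of arrays can give. Scaling the arrays to their spike-in probes brought the step between the genotypes to a log2 fold change of -0.10, while under this scaling the median over all probes tested moved from -0.12 to 0.70.

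Gjb2, the partner of Gjb1 in hepatocyte gap junctions, did not follow it. Its level was 5.18 ± 0.49 in p53f/f HCC, 5.16 ± 0.63 in p53LKO HCC and 4.60 ± 0.50 in ICC (SD, n = 5 each), and the ranges of the groups overlapped. Its log2 fold change in ICC was -0.56 (standard error 0.33, adjusted p = 0.192). The summed level of the 12 hepatocyte markers ran from 11.27 to 11.86 in the p53f/f tumors, from 10.86 to 11.19 in the p53LKO HCC and from 7.54 to 10.33 in ICC. Between the genotypes 2 of the 12 markers (Apob and Pck1) were lower and 0 higher, with a median log2 fold change of -0.30, and in ICC 7 were lower. The part of these markers in the fall of Gjb1 was not tested.

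Gja4, best known from the endothelium of blood vessels, rose in ICC and was well above background on all 15 arrays. Its probe lies at chr4:126988848-126988907 of mm9, as the array files place it, and these files do not state whether a probe lies in an exon or a UTR. Its level was 2.29, 3.66, 3.83, 2.26 and 4.98 in ICC, -0.52, -0.43, -0.68, -0.79 and -1.08 in p53LKO HCC, and -0.36, -0.85, -1.0, -0.25 and 0.10 in p53f/f HCC. Every ICC lay above every HCC, and the rise over p53LKO HCC was 17.2-fold (log2 fold change 4.10, standard error 0.47, adjusted p = 0.000133). Between the HCC groups Gja4 differed by a log2 fold change of -0.23 (adjusted p = 0.482).

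Markers of endothelium did not rise with Gja4 as a list. Of 9 endothelial markers, 1 was higher in ICC than in p53LKO HCC (Vwf, log2 fold change 1.46, adjusted p = 0.015) and 0 were lower, and the summed level was 4.26 to 5.18 in ICC and 4.73 to 5.79 in p53LKO HCC. Gja5, the other connexin of arterial endothelium, had a log2 fold change of 0.44 in ICC (standard error 0.30, adjusted p = 0.264), with levels of -1.67 to -0.15 there and -1.90 to -0.84 in p53LKO HCC. Markers of other cell types did rise. Of 10 bile duct markers 8 were tested and 5 were higher in ICC. Their summed level was 6.40 to 7.46, against 3.01 to 4.34 in HCC of p53LKO and 2.40 to 5.11 in HCC of p53f/f mice. Krt7 and Epcam, which are among the 5, were tested through their ICC arrays only. Also higher were 6 of 9 fibroblast and stellate cell markers and 4 of 7 lymphocyte markers. The part of these lists in the rise of the connexins was not tested.

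Gja1, the connexin found in most cell types other than hepatocytes, was higher in ICC at levels of -2.41 to -1.26, against -3.76 to -1.53 in p53LKO HCC (log2 fold change 1.26, standard error 0.40, adjusted p = 0.0261). The groups overlapped, 3 of 5 HCC and 4 of 5 ICC arrays were well above background, and the call was lost without 4 of the 10 tumors. These were the HCC of mice 5283, 3733 and 3975 and the ICC of mouse 3976, with log2 fold changes of 1.18, 1.13, 1.09 and 1.12. It was also lost with the row of the slide as a block (1.42, adjusted p = 0.0805), with normexp background correction, quantile normalization, spike-in scaling or no filter on dim probes, and by the Mann-Whitney test. Fibroblast and stellate cell markers, cells in which Gja1 is known, were higher in ICC for 6 of 9 genes, with a summed level of 8.95 to 9.78 against 6.24 to 7.99, and their part in this result was not tested. Gjc1, a connexin of vascular muscle, was well above background on 2, 2 and 0 of 5 arrays in p53f/f HCC, p53LKO HCC and ICC and was not tested.

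Gjc3, a connexin of myelinating glia, was low in p53LKO HCC alone. Its level was -0.98, -0.78, -1.18, -0.57 and -0.68 in the p53f/f tumors, -2.95, -3.43, -3.33, -2.37 and -2.53 in p53LKO HCC, and -0.33, -0.28, -1.36, -0.33 and -1.56 in ICC. The p53LKO HCC overlapped with neither of the other groups. They were 4.25-fold below p53f/f HCC (log2 fold change -2.09, standard error 0.24, adjusted p = 0.000159), and ICC were 4.44-fold above them (2.15, standard error 0.32, adjusted p = 0.000598). These HCC arrays are shared by both comparisons. Only 3 of the 5 were well above background for the probe, against 5 of 5 in each other group. Of the 5 members called lower in p53LKO HCC, Gjc3 was the 1 whose call held in all 23 alternatives in which it was tested again. Within slides 1 and 2, where no test was made, its differences were -2.32 and -2.06.

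The other connexins called lower in p53LKO HCC were dim. Gja3, a connexin of the lens, had levels of -2.79 to -1.65 in the p53f/f tumors and -4.15 to -2.99 in the p53LKO HCC (log2 fold change -1.20, standard error 0.28, adjusted p = 0.00852). Gja10, a connexin of neurons, had levels of -2.49 to -2.23 and -3.97 to -2.88 (-1.01, standard error 0.23, adjusted p = 0.00654). Neither pair of groups overlapped, but 3 and 4 of the 5 p53LKO HCC arrays were well above background. Gja10 sat at the fold limit and fell below it without the p53f/f HCC of mouse 3716 (-0.98) or the p53LKO HCC of mouse 5283 (-0.90) or 3731 (-0.86). The calls of Gja3 and Gja10, like that of Cldn17, were lost with normexp background correction, quantile normalization or spike-in scaling. In ICC against p53LKO HCC the log2 fold changes were 0.80 for Gja3 (adjusted p = 0.0847) and 0.09 for Gja10 (adjusted p = 0.849). Gja3 passed without the ICC of mouse 5283 (1.05, adjusted p = 0.0177) and with the 75th percentile over bright probes (1.16, adjusted p = 0.0285).

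**Figure D2:**
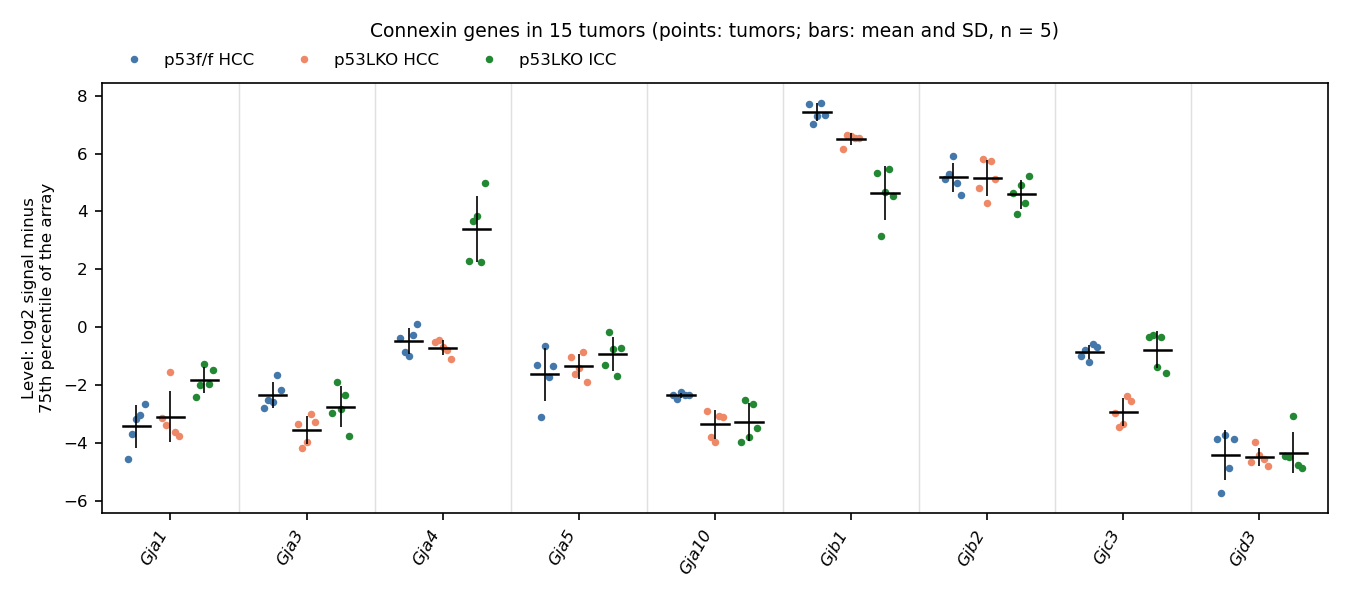
Levels of 9 tested connexin genes in each tumor, as log2 signal relative to the 75th percentile of the array, with blue for p53f/f HCC, orange for p53LKO HCC and green for p53LKO ICC. Bars give the mean and SD of 5 tumors. Gja4 separates all ICC from all HCC upward, Gjb1 separates all 3 groups, and Gjc3 sets p53LKO HCC apart.

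Among claudins, 2 of 18 tested genes rose in ICC and 6 fell. Cldn1, a sealing claudin of hepatocytes and bile ducts, had levels of 0.37, -0.30, -0.01, 0.46 and 0.73 in p53LKO HCC and of -1.69, -4.94, -2.37, -2.02 and -3.22 in ICC. In p53f/f HCC the levels were 1.91, -0.85, 0.26, 1.34 and 1.09, so every ICC lay below every HCC. The fall from p53LKO HCC was 8.56-fold (log2 fold change -3.10, standard error 0.53, adjusted p = 0.00122), with 3 of 5 ICC arrays well above background. Within slide 1, which holds 1 ICC and 2 p53LKO HCC, the difference was -1.72, and within slide 2, with 4 ICC and 3 HCC, it was -3.53.

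Cldn7, a claudin of many epithelia, was uneven in p53f/f HCC. There it had levels of 2.88, 3.86, 3.17, 0.93 and 1.32, with both low values from mouse 3717. In p53LKO HCC it had 4.30, 3.86, 3.25, 3.36 and 4.55, and in ICC 1.45, 1.70, 1.78, 1.60 and 0.16. All ICC lay below all p53LKO HCC (5.76-fold, log2 fold change -2.52, standard error 0.36, adjusted p = 0.00042). The difference between the HCC groups was 1.43 (standard error 0.54, adjusted p = 0.063) and did not pass the test. It passed without the p53f/f HCC of mouse 3715 (1.79, adjusted p = 0.0204), with the slide as a block (1.74, adjusted p = 0.0464) with all 15 arrays in 1 model (1.43, adjusted p = 0.0425), with normexp background correction (1.46, adjusted p = 0.0307) or with spike-in scaling (2.25, adjusted p = 0.00503), but not with the row as a block (1.29, adjusted p = 0.17).

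Cldn14, a sealing claudin of the inner ear and liver, fell 5.53-fold in ICC (log2 fold change -2.47, standard error 0.23, adjusted p = 4.67e-05), from 1.12 to 1.91 in p53LKO HCC to -1.77 to -0.81. Cldn3, a sealing claudin, fell 2.93-fold (-1.55, standard error 0.17, adjusted p = 0.000118), from 5.51 to 5.93 to 3.82 to 4.49. Cldn12, a claudin found in many tissues, fell 2.41-fold (-1.27, standard error 0.24, adjusted p = 0.00191), from 2.79 to 4.06 to 1.91 to 2.44. None of these pairs of groups overlapped. Cldn12 missed the fold limit with quantile normalization (-0.95) and with the 75th percentile over bright probes (-0.90). Against p53f/f HCC, the p53LKO HCC differed by log2 fold changes of 0.33, 0.50 and 0.22 for Cldn14, Cldn3 and Cldn12, with adjusted p of 0.369, 0.0813 and 0.543.

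Cldn6, a claudin of embryonic epithelia, was well above background on 2, 3 and 0 of 5 arrays in p53f/f HCC, p53LKO HCC and ICC. Its levels in p53LKO HCC were -2.03, -4.14, -2.06, -5.23 and -0.66, and those in ICC were -5.06 to -4.42. It passed the test as lower in ICC with an adjusted p of 0.0471, with overlapping groups, and no fold can be given because the ICC signal was not well above background. The call was lost without any of 8 of the 10 tumors, with adjusted p of 0.0661 to 0.0987, and held only without the HCC of mouse 5283 or 3733. It was also lost with the slide (adjusted p = 0.0649) or the row (0.225) as a block. Between the HCC groups the log2 fold change of 1.77 (adjusted p = 0.132) did not pass, but with the p53LKO tumor of mouse 3733 left out it became 2.37 at an adjusted p of 0.041.

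Against these falls stood Cldn13, a claudin of rodents that has no human counterpart. It was well above background on 0 of 5 arrays in each HCC group and on 5 of 5 ICC arrays. Its level in ICC was 1.15, 3.00, 3.14, -0.16 and 4.87, and the HCC of both genotypes lay between -5.92 and -4.24. ICC were at least 99.7-fold above p53LKO HCC (adjusted p = 9.36e-05), a bound against the lowest signal that the software called well above background on each HCC array, or the signal of the probe where that was higher. Among ICC, the tumor of mouse 5283 was the highest and that of mouse 3977 the lowest for both Cldn13 and Gja4. Cldn2, a pore-forming claudin, also rose, from 0.04 to 1.95 in p53LKO HCC to 2.12 to 2.72 in ICC without overlap (2.75-fold, log2 fold change 1.46, standard error 0.30, adjusted p = 0.00331). Its other probe gave 1.38 (adjusted p = 0.00677).

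Cldn13 has the neighbours Cldn4 and Cldn3 on chromosome 5, and the 3 genes moved differently. Their probes span 72.6 kb of mm9, at chr5:135390710-135390769 for Cldn13, chr5:135422135-135422194 for Cldn4 and chr5:135463284-135463342 for Cldn3. Cldn4, a sealing claudin of many epithelia, had levels of -4.26 to -1.87 in p53LKO HCC and -4.50 to -2.15 in ICC, with 4 and 1 of 5 arrays well above background (log2 fold change -0.53, standard error 0.50, adjusted p = 0.403). So within this group of neighbours 1 gene was higher, 1 was not called and 1 was lower in ICC. Similar splits were seen elsewhere. Of 54 members, 22 lay within 200 kb of another member, in 9 groups. Ocln was lower while Marveld2, 97.8 kb away, was not called, and Cldn6 was called while Cldn9, 1.2 kb away, had a log2 fold change of -0.01 (adjusted p = 0.968).

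The 250 bases before the start given by RefSeq, 5′ to 3′ along the gene, are shown for Cldn4 and Cldn3, neighbours that were not called and lower in ICC, beside those of Gja4, which was higher. Capitals mark matches, on either strand, to the motifs searched. Cldn1, with the largest fall, is added.
Gja4, GRCm38.p6 chr4:127314040-127314289, minus strand: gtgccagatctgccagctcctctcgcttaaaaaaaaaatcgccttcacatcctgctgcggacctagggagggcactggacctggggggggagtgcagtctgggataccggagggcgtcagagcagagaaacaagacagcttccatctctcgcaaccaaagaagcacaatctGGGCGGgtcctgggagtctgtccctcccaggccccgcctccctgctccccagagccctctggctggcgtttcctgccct
Cldn4, GRCm38.p6 chr5:134946935-134947184, minus strand: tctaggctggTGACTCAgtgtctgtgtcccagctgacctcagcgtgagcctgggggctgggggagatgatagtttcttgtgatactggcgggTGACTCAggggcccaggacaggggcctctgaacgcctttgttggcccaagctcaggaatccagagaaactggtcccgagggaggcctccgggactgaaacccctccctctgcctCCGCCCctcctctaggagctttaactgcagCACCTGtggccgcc
Cldn3, GRCm38.p6 chr5:134985964-134986213, plus strand: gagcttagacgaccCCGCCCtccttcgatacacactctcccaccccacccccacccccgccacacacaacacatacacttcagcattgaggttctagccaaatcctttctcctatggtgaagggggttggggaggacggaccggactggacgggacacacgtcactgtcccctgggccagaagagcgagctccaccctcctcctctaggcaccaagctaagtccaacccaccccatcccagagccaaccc
Cldn1, GRCm38.p6 chr16:26371840-26372089, minus strand: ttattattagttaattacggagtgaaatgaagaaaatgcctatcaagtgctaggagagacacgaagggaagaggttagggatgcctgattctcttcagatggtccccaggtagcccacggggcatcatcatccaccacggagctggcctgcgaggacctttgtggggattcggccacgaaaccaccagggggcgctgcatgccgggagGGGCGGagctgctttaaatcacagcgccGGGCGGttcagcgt
The motifs were the GC box (GGGCGG, in 32.7% of all 32851 such windows), the E-box bound by Snail and Zeb proteins (CACCTG, 17.2%), the TEAD site (GGAATG, 12.6%), the TATA box (TATAAA, 12.4%), the AP-1 site (TGANTCA, 6.75%), a FOXA site (TGTTTAC, 3.17%), an HNF4 site (CAAAGTCCA, 0.384%) and an HNF1 site (0.00913%). Gja4 and Cldn3 held 1 GC box each and Cldn1 held 2. Cldn4 held 1 GC box, 1 E-box and 2 AP-1 sites. Windows were given for all 9 genes that were lower in ICC and for 4 of the 9 that were higher. The E-box stood before at least 1 start of 6 of the 9 lower genes (Cldn6, Cldn7, Cldn14, Gjb1, Ocln and Pard3) and of 0 of the 4 higher genes, where 19.4% of 27025 genes had one. The GC box stood before 8 of the 9 lower and 1 of the 4 higher genes, where 35.4% of genes had one. Genes with several starts have more windows, and of the 19 windows of the lower genes 6 held the E-box. A match is a run of letters and not a bound site.

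The claudins called lower in p53LKO HCC than in p53f/f HCC were Cldn15 and Cldn17. Cldn17, a pore-forming claudin of the kidney, went from levels of -3.87 to -3.08 to levels of -5.40 to -4.28 without overlap (log2 fold change -1.24, standard error 0.27, adjusted p = 0.0053), with 4 and 3 of 5 arrays well above background. Its difference was -1.56 within slide 1 and -0.74 within slide 2. Cldn15, a pore-forming claudin of the gut that is named here because it completes the count, went from -1.01 to 0.04 to -3.02 to -0.83 with overlap (-1.57, standard error 0.39, adjusted p = 0.0115). Its adjusted p was 0.0542 by the Mann-Whitney test and 0.0544 by limma with all 15 arrays in 1 model, and the call was also lost with normexp background correction or spike-in scaling. In ICC its levels were 0.51, 0.44, -0.76, 0.41 and -3.0, and the log2 fold change of 1.44 over p53LKO HCC (adjusted p = 0.105) did not pass. It passed without the lowest ICC, that of mouse 5283 (2.07, adjusted p = 0.00472), and in the 4 mice with both tumors with the mouse as a replicate block (1.49, adjusted p = 0.0453), and with normexp background correction (1.08, adjusted p = 0.0241).

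Cldn5, the claudin of endothelium, was at 0.41 ± 0.79, 0.37 ± 0.84 and 0.17 ± 0.41 in p53f/f HCC, p53LKO HCC and ICC (SD, n = 5 each), with adjusted p of 0.96 and 0.678 for the comparisons. Cldn10, a pore-forming claudin, was well above background on 1, 3 and 0 of 5 arrays, with levels of -5.23 to -3.93 over all 15 tumors, and had an adjusted p of 0.823 between the HCC groups.

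**Figure D3:**
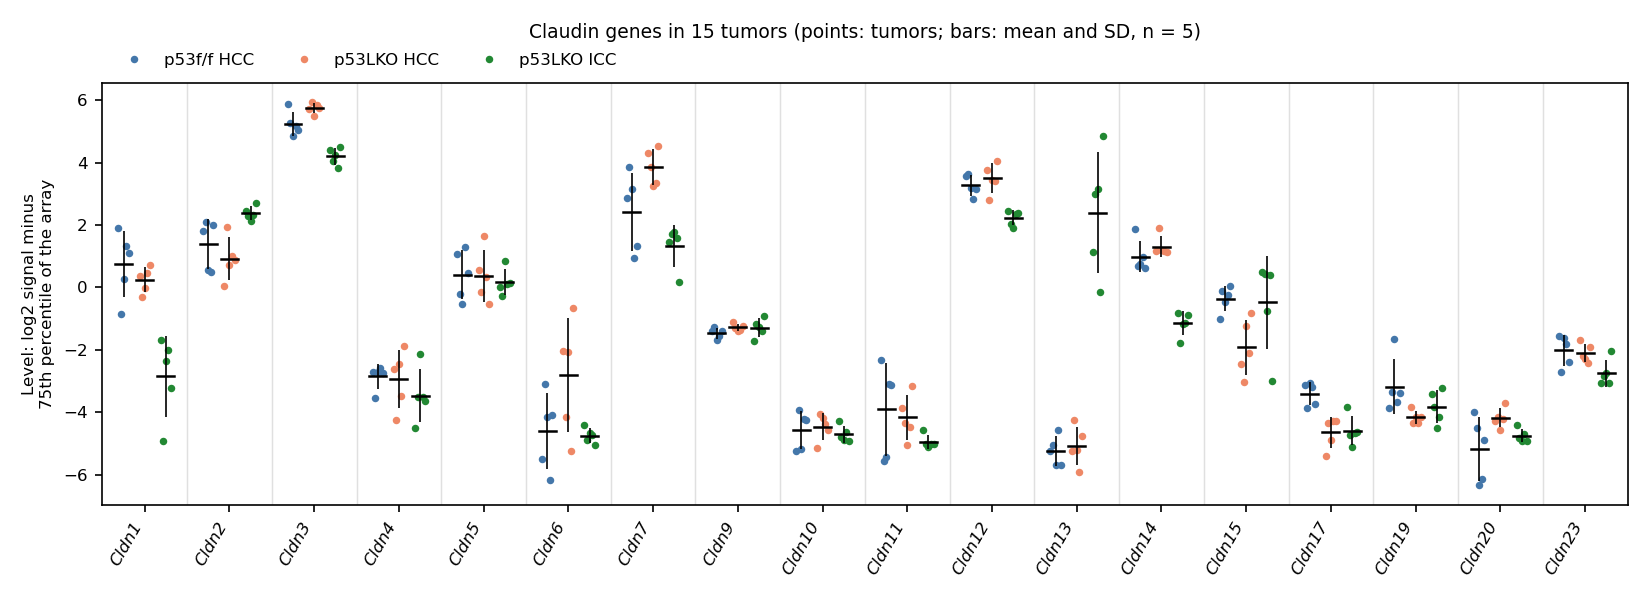
Levels of the 18 tested claudin genes in each tumor, as log2 signal relative to the 75th percentile of the array, with blue for p53f/f HCC, orange for p53LKO HCC and green for p53LKO ICC. Bars give the mean and SD of 5 tumors. All ICC lie above all HCC for Cldn13 and, narrowly, for Cldn2 (lowest ICC 2.12, highest HCC 2.11). They lie below all HCC for Cldn1, Cldn3, Cldn12 and Cldn14.

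The other transmembrane proteins of the tight junction also moved in both directions in ICC, though not in the proportions of the claudins. Of 3 MARVEL proteins 1 rose and 1 fell, and of 3 junctional adhesion molecules 2 rose and 0 fell. Ocln, occludin, fell 2.86-fold in ICC (log2 fold change -1.52, standard error 0.33, adjusted p = 0.0045), from -0.74 to 0.39 in p53LKO HCC to -2.69 to -1.03 without overlap. With normexp background correction Ocln did not pass the fold limit (-1.0, adjusted p = 0.00419). Its other probe, which was well above background on 0 of 5 ICC arrays, was not called (adjusted p = 0.0508). Marveld2, or tricellulin, which sits where 3 cells meet, ranged from 0.26 to 0.51 in ICC and from -0.22 to 1.26 in p53LKO HCC (log2 fold change -0.16, standard error 0.29, adjusted p = 0.664). Marveld3, the third member of this family, rose. Its level was -2.86, -3.24, -0.77, -2.88 and -1.88 in the p53f/f tumors, -3.42, -3.77, -4.12, -4.12 and -2.46 in p53LKO HCC, and 0.58, 0.23, -0.30, 0.41 and -0.15 in ICC. All ICC lay above all HCC of either genotype. The rise over p53LKO HCC was 13.3-fold (3.73, standard error 0.32, adjusted p = 3.25e-05) with 3 of 5 p53LKO HCC arrays well above background. The other probe was also called higher in ICC (adjusted p = 0.000355), but it was well above background on 1 of 5 p53LKO HCC arrays, and its fold is not given. Between the HCC groups Marveld3 differed by -1.25 (standard error 0.48, adjusted p = 0.0681), and it passed the test without the p53f/f HCC of mouse 3715 (-1.48, adjusted p = 0.0412) or the p53LKO HCC of mouse 3975 (-1.53, adjusted p = 0.0347). It also passed with all 15 arrays in 1 model (adjusted p = 0.0364) and with the 75th percentile over bright probes (-1.51, adjusted p = 0.0317), and not with the slide (adjusted p = 0.0933) or the row (0.144) as a block.

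Jam2 and Jam3, adhesion molecules that bind each other between endothelial and other cells, were both higher in ICC. Jam2 had levels of -0.88, -0.80, -0.95, -1.28 and -2.82 in p53LKO HCC and of 0.22, 1.59, 1.5, 1.19 and 2.36 in ICC, without overlap (6.57-fold, log2 fold change 2.72, standard error 0.45, adjusted p = 0.00102). The difference was 1.06 within slide 1 and 3.34 within slide 2. A second probe gave 1.17 (adjusted p = 0.000753), and both were well above background on all 15 arrays. The remaining probe was called too (adjusted p = 0.00946), but it was well above background on 1 of 5 p53LKO HCC and 3 of 5 ICC arrays, and its fold is not given. For the HCC of both genotypes the first probe differed by -0.97 and the second by -0.77. The latter had an adjusted p of 0.00427 and groups without overlap, and neither passed the fold limit. With the 75th percentile over bright probes the first one passed (-1.23, adjusted p = 0.0443). Jam3 had levels of -2.32 to 0.05 in p53LKO HCC and -0.28 to 1.79 in ICC (4.19-fold, 2.07, standard error 0.47, adjusted p = 0.00527), with overlap from the HCC of mouse 3731. F11r, the junctional adhesion molecule of epithelia, had levels of 4.91 to 5.76 and 4.40 to 5.29 (-0.56, standard error 0.22, adjusted p = 0.0633) and was not called.

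The scaffolds on the inner side of the junction were not called in either comparison. Tjp1, or ZO-1, was at 1.94 ± 0.44, 1.73 ± 0.08 and 1.74 ± 0.36 in p53f/f HCC, p53LKO HCC and ICC (SD, n = 5 each), and ICC did not pass the test against p53LKO HCC (log2 fold change 0.01, standard error 0.19, adjusted p = 0.961). Tjp3 and Cgn (cingulin) passed the adjusted p but not the fold limit, with log2 fold changes in ICC of -0.65 (adjusted p = 0.0113) and -0.79 (adjusted p = 0.0128). For Tjp3 and Cgn the HCC groups differed by 0.53 (adjusted p = 0.299) and -0.15 (adjusted p = 0.667).

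Pard3, the scaffold of the Par polarity complex, was highest in p53LKO HCC. Its levels were 0.93 to 1.79 in p53f/f HCC, 1.80 to 2.53 in p53LKO HCC and 0.31 to 1.14 in ICC. The p53LKO HCC lay above all tumors of the other groups. The fall to ICC was 2.61-fold (log2 fold change -1.39, standard error 0.22, adjusted p = 0.000813). The step from p53f/f HCC, 0.67 (standard error 0.22, adjusted p = 0.0358), was under the fold limit, and its adjusted p was 0.077 with the slide and 0.0946 with the row as a block. The 4 probes of Pard3 differed. Between the HCC groups the others gave 1.29 (adjusted p = 0.00582, which passed both limits), 0.99 (adjusted p = 0.0108) and 0.34 (adjusted p = 0.277). In ICC they gave -0.74 (adjusted p = 0.0389), -0.75 (adjusted p = 0.0225) and -1.0 (adjusted p = 0.0143). Each had overlapping groups, and only the last was called. For the probes at -0.74 and -0.75 the mean ICC levels (-0.08 and 0.01) lay above those of p53f/f HCC (-0.62 and -0.23). Pard6b, its partner, was at -2.88 ± 0.64, -2.48 ± 0.69 and -2.97 ± 0.61 (SD, n = 5 each) with adjusted p of 0.434 and 0.303.

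**Figure D4:**
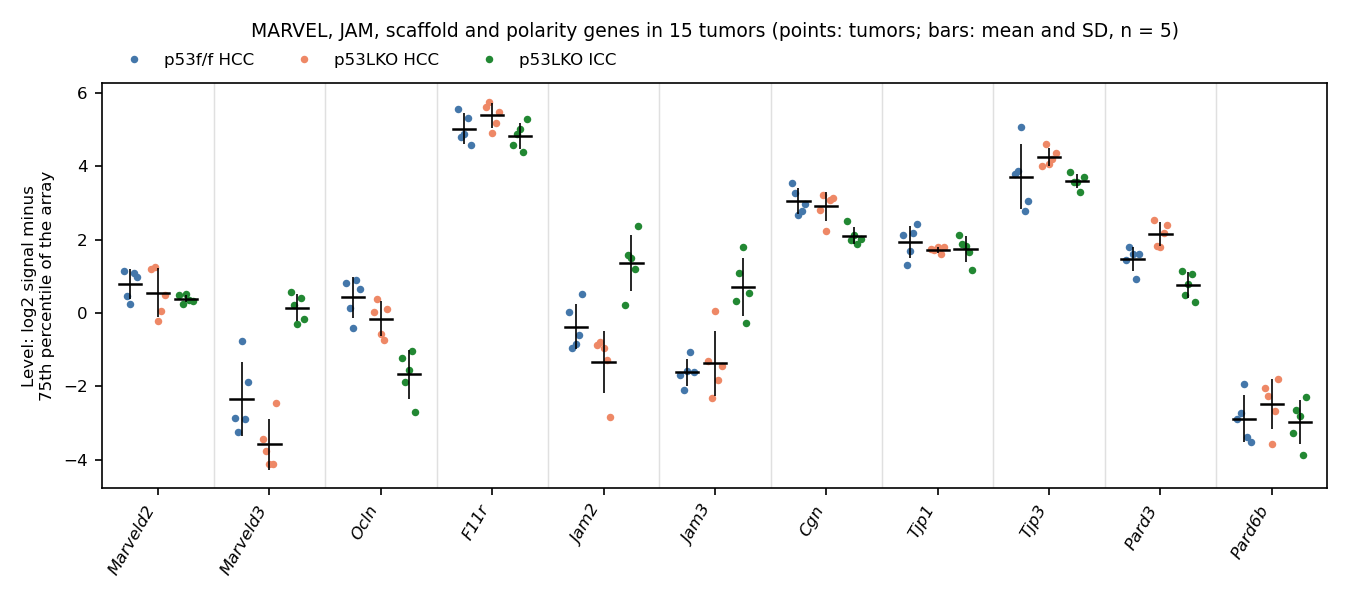
Levels of 11 MARVEL, junctional adhesion, scaffold and polarity genes in each tumor, as log2 signal relative to the 75th percentile of the array, with blue for p53f/f HCC, orange for p53LKO HCC and green for p53LKO ICC. Bars give the mean and SD of 5 tumors. Marveld3 separates all ICC from all HCC upward and Ocln downward, while the groups overlap for Marveld2, Tjp1 and Pard6b.

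The remaining 8 tested members (among them Cldn9, Cldn11, Cldn19, Cldn20, Cldn23 and Gjd3) were not called in either comparison, at log2 fold changes of -0.98 to 0.99 between the HCC groups. Apart from Gjc1, 10 members were tested in neither comparison (Cldn8, Cldn16, Cldn18, Cldn22, Cldn24, Gja6, Gjb5, Gjb6, Gjd2 and Gjd4). Of all 54 genes, 7 were well above background on 0 and 21 on all 15 arrays. Of the 9 genes called higher in ICC, 3 were well above background on all 10 arrays of the comparison, and of the 9 called lower, 7 were.

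Partners of these proteins that were not part of the choice were read from a separate list of tight junction and polarity genes and pannexins. Of 33 on the array 30 were tested in each comparison. Between the HCC groups 0 were higher and 0 lower by limma, the median was 0.13 on the log2 scale, and 7 of the 30 had an unadjusted p under 0.05, as did 41.1% of all tested genes. In ICC 1 was higher and 2 were lower, with a median of -0.20. The gene that was higher was Pard6g, a polarity protein related to Pard6b (log2 fold change 3.09, adjusted p = 0.000142). Those that were lower were Cgnl1, a relative of cingulin (adjusted p = 0.0188, at least 1.12-fold, since 0 of 5 ICC arrays were well above background), and Igsf5, a relative of the junctional adhesion molecules (-1.54, adjusted p = 0.000509).

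The results of the ICC comparison were also read with the array layout in the fit. With the slide as a block 9 members were higher and 8 lower, and with the row as a block 8 and 8. Within slides 1 and 2 the log2 fold changes were 2.76 and 4.53 for Gja4, -1.07 and -2.12 for Gjb1, and -2.63 and -2.41 for Cldn7. All of these had the direction of the fit over 10 arrays. The nominal p-values of both comparisons measure the spread between these tumors, and tumors of 1 mouse are not independent.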

How the data were processed

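Total RNA of 15 tumors was labelled with Cy3 and hybridised to 15 1-colour Agilent mouse arrays, and the scans were read by the authors with Agilent Feature Extraction 10.7.3.1. The deposited scanner files hold intensity values, of which the processed signal, already corrected for background by that software, was used. The authors' deposited value table holds log2 values that were centred per probe, separately for the HCC and ICC columns, so it was used only as an alternative for the HCC groups.

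Control spots and spots that the software marked as outliers were left out. For each probe the log2 signals of its spots were averaged, and the 75th percentile of the array was subtracted. A probe was tested if the software called it well above background on at least 3 of 5 arrays of either group compared, with limma 3.58.1 in R 4.3.3, over all such probes, with Benjamini-Hochberg adjustment. p53LKO HCC was compared with p53f/f HCC, and p53LKO ICC with p53LKO HCC. Exact 2-sided permutation tests used all 252 splits of 10 arrays. No spot was saturated. The number of arrays limits the precision.

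The members and gene lists were chosen with earlier results of these data known. Described were 28 genes fixed by role, and per comparison the called genes without overlap that rose most and fell most, up to 5 each. Cldn15 was added after its values were seen. Some tested genes are counted but not reported by name here or drawn in the figures. Lists for other junction genes, hepatocytes, bile duct cells, endothelium, fibroblasts and stellate cells, macrophages, lymphocytes and pancreatic acinar cells were read by counts and by summed level, the log2 of the summed linear levels of their genes. The tumor pairs of the 4 mice with both an HCC and an ICC were checked for deviating together. Their correlations ran from -0.143 to 0.0655, against -0.263 to 0.284 for 21 other pairs. As the same mouse gave both tumors, the mouse was also used as a replicate block.

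Alternatives were normexp background correction (offset 50), quantile normalization, the 75th percentile over bright probes, scaling to spike-in probes, no filter and a stricter filter on dim probes, 1 model over 15 arrays, slide or row as a block or each slide alone, the Mann-Whitney test, the methods' t-test, no fold limit, any probe of a gene, the mean of both tumors of mouse 3717, and leaving out each array. The code was tested on simulated data. Promoter sequences came from RefSeq tables of GRCm38.p6, while probe positions are those of mm9 in the array files, and the builds were not mixed. Figures were drawn with matplotlib 3.10.9.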

Additional observations from a re-analysis of the deposited data

Results flagged for a closer look

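Among 36 genes, 108 groups of 5 tumors were searched for a tumor far from the others, by the gap to its nearest neighbour as a share of the whole range of the group. In 6 groups a tumor passed the limit of 0.71, where about 5.4 are reached by chance, since chance gives about 1 in 20. Gjb1 was lower in the p53LKO HCC of mouse 3976, at 6.15 against 6.55 to 6.65 in the other 4. Gja1 was higher in the p53LKO HCC of mouse 3731, at -1.53 against -3.76 to -3.13. Cldn14 was higher in the p53LKO HCC of mouse 5283, at 1.91 against 1.12 to 1.21. Jam2 was lower in the p53LKO HCC of mouse 3975, at -2.82 against -1.28 to -0.80. Cldn4 was lower in the p53f/f HCC of mouse 3715, at -3.55 against -2.74 to -2.57. Cldn7 was lower in the ICC of mouse 5283, at 0.16 against 1.45 to 1.78. The 6 cases fell on 5 mice. The calls of Gjb1, Cldn7, Cldn14 and Jam2 in ICC held without each of the 10 tumors left out in turn, and those of Gja1 did not.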

How the results depend on the processing

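Genes called higher in p53LKO HCC than in p53f/f HCC, 0 as reported, numbered 1 with normexp background correction, quantile normalization, 15 arrays in 1 model, the slide as a block or any probe of a gene, 2 with no fold limit, 15 with spike-in scaling, and 0 to 1 without each array in turn. Genes called lower, 5 as reported, numbered 1 with normexp, 2 with quantile normalization, 9 with the 75th percentile over bright probes, 1 with spike-in scaling, 0 where every array had to be bright, and 4 to 7 without each array. In ICC the 9 higher genes became 3 where every array had to be bright and ran from 8 to 11 without each array, and the 9 lower genes became 14 with no fold limit and ran from 8 to 9. With the 75th percentile over bright probes the split in ICC was 11 to 7, and with the mouse as a replicate block in the 4 mice with both tumors it was 9 to 8. The block changed the calls of Gja1 (1.12, adjusted p = 0.143), Cldn6 (adjusted p = 0.0946) and Cldn15 by limma. Where every array had to be bright, fewer genes were tested; for the other settings the cause was not tested. Of 756 log2 fold changes tested again between the HCC groups, 674 kept their direction and side of the limits and 38 turned direction, in 15 genes, and in ICC 688 of 745 did so and 15 turned, in 4 genes. Within single slides, where no test was made, 10 of 64 differences between the HCC groups and 4 of 66 in ICC had the other sign. None of the turned values belonged to a gene called in that comparison. Between the HCC groups, spike-in scaling turned Gjb2 (0.80), Gja4 (0.59), Cldn1 (0.32), Cldn2 (0.34), Cldn4 (0.73), Cldn5 (0.78), Tjp1 (0.60), Ocln (0.23), Cgn (0.67) and Marveld2 (0.59). The 75th percentile over bright probes turned Cldn10 (-0.15), Cldn12 (-0.04) and Jam3 (-0.02), normexp Gjb2 (0.07) and Cldn10 (-0.23), quantile normalization Cldn4 (0.01) and Cldn12 (-0.04), the row as a block Cldn4 (0.26) and Cldn5 (0.08), the slide as a block Gjb2 (0.16) and Cldn10 (-0.02), and the mean of mouse 3717 Cldn5 (0.08). In ICC, the 75th percentile over bright probes turned Cldn5 (0.16) and Marveld2 (0.20), normexp and spike-in scaling Tjp1 (-0.02 and -0.03), and quantile normalization Gja10 (-0.25). Leaving out each array gave ranges across 0 between the HCC groups for Gjb2 (-0.18 to 0.19), Gja1 (-0.06 to 0.52), Gja5 (-0.11 to 0.50), Cldn4 (-0.35 to 0.25), Cldn5 (-0.36 to 0.19), Cldn10 (-0.06 to 0.27), Cgn (-0.24 to 0.02) and Jam3 (-0.11 to 0.48), and in ICC for Cldn5 (-0.43 to 0.11), Tjp1 (-0.09 to 0.15), Marveld2 (-0.36 to 0.01) and Gja10 (-0.10 to 0.26). Probes near background, among them Gja3, Gja10, Cldn6 and Cldn17 in HCC, limit how exactly a fold change is known.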

Other observations

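The p53LKO HCC of mouse 3731 had the highest level of its group for Gja1 (-1.53), Jam3 (0.05) and Cldn5 (1.66), of which Gja1 and Jam3 had a higher mean in ICC. It was also the highest of its group for 8 of 9 endothelial markers (all but Kdr) and 8 of 9 fibroblast and stellate cell markers (all but Pdgfra), and their part in these levels was not tested. The same mouse also gave an ICC, with levels of -2.41, 0.32 and 0.02 for these genes. Both tumors were measured on different slides. The p53f/f HCC from the second tumor of mouse 3717 had the highest levels of its group for the bile duct markers Krt19 (0.88) and Epcam (-1.27), and among the members for Gja4 (0.10) and Jam2 (0.51).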
